A study of Mus musculus with 18 samples.

Results

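Loci, most of them annotated as long noncoding, were compared between libraries labelled rST (day 35) and pacSC (day 21) from mouse testis. This step of spermatogenesis spans the end of meiosis. A locus was taken when it reached 1 FPKM (a fragment count divided by transcript length and by library size) in 3 or more of the 6 rST and pacSC columns. This kept 2787 of 13218 loci, or 21.1%. Of these, 575 reached 1 FPKM in all 6 libraries, 55 passed through the pacSC libraries alone and 1 through the rST libraries alone.

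The study profiled 6 germ cell types of the ICR mouse, an outbred strain, with 18 libraries in all. Both groups used here came from untreated testis, with no treatment or allele in the labels: pacSC from animals 21 days old and rST from animals 35 days old, with 3 libraries each. Neither name is written out in the labels; both are common short forms for pachytene spermatocytes and round spermatids. Cells were separated by STA-PUT, which sorts by sedimentation rate and so mostly by cell size, and no label gives the purity reached. In such bulk samples, fewer cells of a type and less RNA per cell cannot be told apart.

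Pachytene spermatocytes are in the long stretch of meiotic prophase in which homologous chromosomes are paired and recombine. Round spermatids are the haploid cells that follow the meiotic divisions, before the nucleus condenses and histones give way to transition proteins and protamines. The testis transcribes more long noncoding RNA loci than most tissues, many of them in spermatocytes and spermatids only, and the function of most is not known.

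The sequences of 3 start regions are shown because these loci had some of the largest differences described below and their windows hold no exon of another gene in GENCODE M21. Each is a RefSeq promoter window of GRCm38.p6 that runs from 250 bases before to 50 bases after the start, 5′ to 3′ on the plus strand. They lie at chr10:77893170-77893469 (1700009J07Rik), chr13:113135826-113136125 (1700084D21Rik) and chr7:125368611-125368910 (4930571K23Rik). Capitals mark a match to TGACNTCA on either strand, and a window without capitals holds none.
1700009J07Rik: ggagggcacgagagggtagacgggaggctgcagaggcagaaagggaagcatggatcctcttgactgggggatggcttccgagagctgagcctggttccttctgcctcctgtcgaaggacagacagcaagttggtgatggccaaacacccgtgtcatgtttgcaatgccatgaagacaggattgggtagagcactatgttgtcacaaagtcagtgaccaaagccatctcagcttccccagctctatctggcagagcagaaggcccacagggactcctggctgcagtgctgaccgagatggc
1700084D21Rik: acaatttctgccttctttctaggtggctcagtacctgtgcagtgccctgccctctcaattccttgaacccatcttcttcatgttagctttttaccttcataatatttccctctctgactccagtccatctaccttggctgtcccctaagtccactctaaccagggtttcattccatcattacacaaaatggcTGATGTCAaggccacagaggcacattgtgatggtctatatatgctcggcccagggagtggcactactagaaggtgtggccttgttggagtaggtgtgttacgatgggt
4930571K23Rik: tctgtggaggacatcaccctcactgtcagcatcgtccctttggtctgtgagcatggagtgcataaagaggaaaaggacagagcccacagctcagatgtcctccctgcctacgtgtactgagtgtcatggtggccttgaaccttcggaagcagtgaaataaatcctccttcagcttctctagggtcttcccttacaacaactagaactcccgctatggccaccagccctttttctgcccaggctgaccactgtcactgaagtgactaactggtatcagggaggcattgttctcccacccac

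Before the loci, the 6 libraries were compared with each other, since several were closer to libraries of other labels than to their own. Across the 2787 loci, which are not independent replicates, pacSC replicates 1 and 2 had Pearson's r of 0.97 on log2(FPKM + 1), and rST replicates 2 and 3 had 0.93. The library labelled pacSC replicate 3 had r of 0.49 with each of the other pacSC libraries, but 0.88 with rST replicate 2 and 0.94 with rST replicate 3. With plpSC replicate 3, labelled day 14, it had r of 0.90, and rST replicates 2 and 3 had 0.87 and 0.83. The library labelled rST replicate 1 had r of 0.08 and 0.03 with the other rST libraries. Among all 18 libraries, its closest was elST replicate 1 (day 56; r 0.98), followed by priSG-A replicate 2 (day 6; 0.95), plpSC replicate 2 (day 14; 0.95), plpSC replicate 1 (0.93) and priSG-A replicate 1 (0.92). With elST replicates 2 and 3 it had r of 0.21 and 0.47. The closest library of pacSC replicates 1 and 2 was elST replicate 3 (r 0.97 and 0.98), slightly above their r with each other. For rST replicate 3 it was pacSC replicate 3, and only rST replicate 2, with rST replicate 3, had its closest library under its own label.

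**Figure D1:**
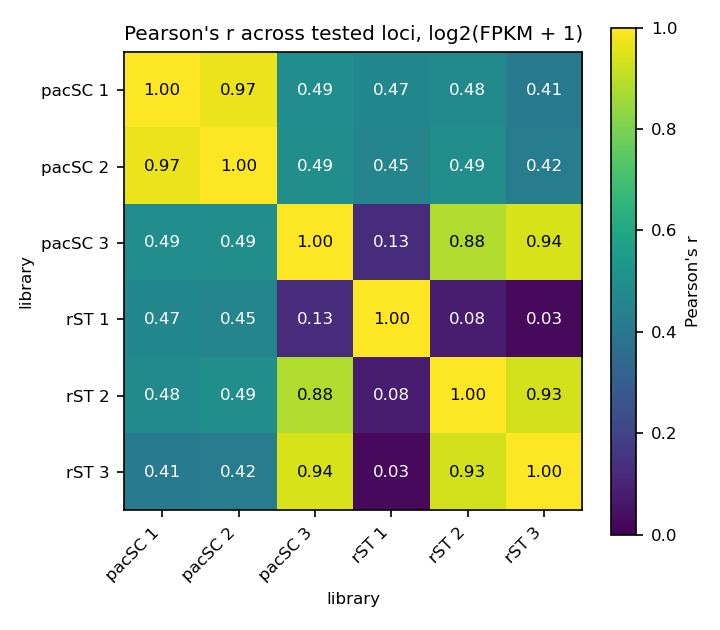
Pearson's r between each pair of the 6 libraries, as a grid with libraries on both axes and r as colour and number, across 2787 loci on log2(FPKM + 1). The library labelled pacSC replicate 3 sits with rST replicates 2 and 3 (0.88 and 0.94), and the library labelled rST replicate 1 sits near neither (0.03 to 0.47 with all others).

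The library labelled rST replicate 1 listed 835 of the 2787 loci at 0 (30%), against 0.323% to 1.29% in the other 5 libraries. It was under 1 FPKM at 1794 loci (64.4%). The depth inferred from the FPKM steps was 72.4, 69.6 and 31.7 M (mega) fragments for pacSC replicates 1 to 3, and 38.2, 48.8 and 34.5 M for rST. The ribosomal RNA-derived locus AY036118 stood at 7.44, 7.25 and 9242 FPKM in pacSC replicates 1 to 3, compared with 11750, 13911 and 6509 FPKM in rST. By this locus, pacSC replicates 1 and 2 form a low set (under 100 FPKM) and the other 4 libraries a high set. The same 2 libraries had the greater depth and an inferred fragment length of 260 and 270 bp, against 200 to 210 bp in the others. Except for pacSC replicate 3, the 2 sets coincide with the labelled types. Without it, set and type cannot be told apart.

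No coding marker gene had a row of its own, so the labels were checked with loci that share exon sequence with a marker gene. The use of strand is not given, so reads in the shared bases are taken as not separable from those of the marker. 1700027A15Rik, which shares 40 of its 1396 exonic bases with Tnp1 (a transition protein of spermatid chromatin), stood in for spermatids. It was at 75.8, 84.9 and 1195 FPKM in the pacSC libraries, against 0, 4539 and 3175 FPKM in rST. The spermatid stand-in was thus listed at 0 in the library labelled rST replicate 1, and in pacSC replicate 3 it was more than 10 times as high as in the other pacSC libraries. The pachytene stand-in Gm20539 (Spag6, a sperm flagellum gene) did not exceed 0.160 FPKM in any library and gave no check. The 3 spermatogonial stand-in rows (Gm16277 with Gfra1, and Uchl1os on 2 rows) summed to 1.02 to 3.42 FPKM in pacSC replicates 1 to 3, compared with 0.979 to 1.52 FPKM in rST. Leydig (Gm17322 with Cyp11a1) and peritubular (Igf2os) stand-ins stayed at or under 0.668 and 0.0802 FPKM. The somatic RNAs H19, Meg3, Rian and Mirg summed to 5.60 to 12.7 FPKM in the pacSC libraries, against 8.91 to 17.0 FPKM in rST, the highest in rST replicate 1, with none at 0. The part of other cells in the results was not tested. No label says that the 3 libraries of a type came from separate animals, and each p-value then reflects the spread among these libraries alone, part or all of which may be technical.

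With all 6 libraries, no locus passed limma's test at an adjusted p of 0.05 (0 of 2787, or 0%). At an unadjusted p under 0.05 there were 98 loci, and limma without trend and robust estimation gave 0 calls with 137 loci at an unadjusted p under 0.05. The smallest adjusted p was 0.845. With rST replicate 1 left out, limma again called 0 loci (0%), with 431 loci at an unadjusted p under 0.05 and a smallest adjusted p of 0.299, and limma without trend and robust estimation gave 0 calls with 429 such loci. The threshold therefore gave no named locus a call in either version, and the values that follow are descriptions.

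A call appeared when pacSC replicate 3 was left out as well. In that fit of pacSC replicates 1 and 2 against rST replicates 2 and 3, limma called 1911 loci: 958 higher in rST (34.4%) and 953 lower (34.2%). Here the type and the AY036118 set coincide completely and cannot be told apart, so these calls compare those 4 libraries. Without rST replicate 1, a single library, pacSC replicate 3, thus decides whether the count is 0 or 1911. Within the high AY036118 set, where pacSC replicate 3 is the lone pacSC library and is assumed to vary like the rST libraries, limma called 0 loci with all 3 rST libraries (3 at an unadjusted p under 0.05) and 3 without rST replicate 1.

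The libraries were also compared by whether the values of the types overlapped. With all 6 libraries, the rST values all lay above the pacSC values at 8 loci (0.287%) and all below them at 375 (13.5%). With rST replicate 1 left out, these numbers were 474 (17%) and 705 (25.3%), and the types overlapped at the other 1608 loci. Of the 474 loci, 414 (87.3%) were under 1 FPKM in rST replicate 1, and at 408 that library lay below every pacSC library. The direction of the fold change differed between the versions at 626 loci. Of the 474, 96 had a negative fold change with all 6 libraries.

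The median log2 fold change (rST over pacSC, here and below, on log2(FPKM + 1), where low loci appear to change less than they do) over all tested loci was -0.53 with all 6 libraries and -0.16 without rST replicate 1. Quantile normalization moved these medians to 0.08 and -0.12, and equal sums without the ribosomal RNA-derived loci to -0.37 and 0.26. Medians of groups are given beside these values.

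**Figure D2:**
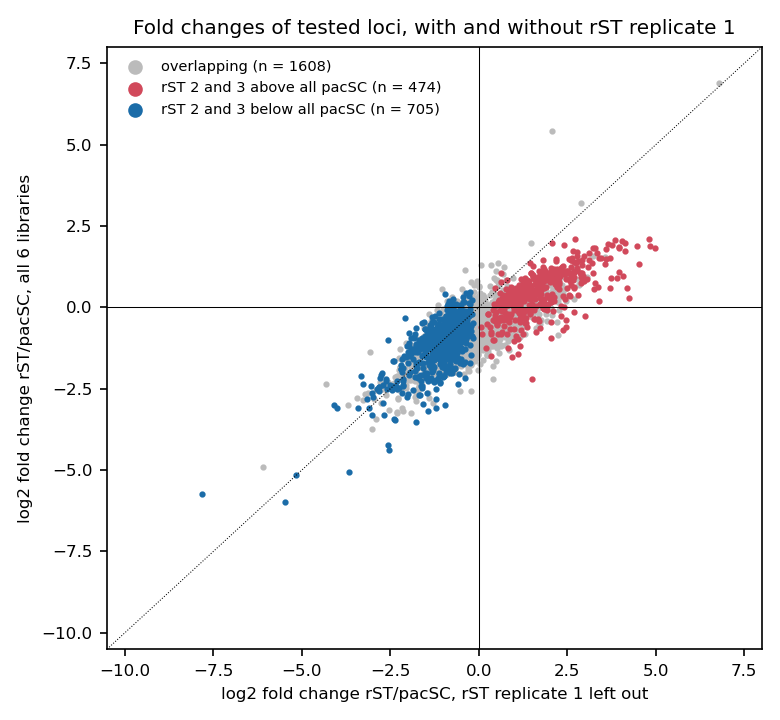
Each point is 1 of 2787 loci, with the log2 fold change of rST over pacSC without rST replicate 1 on the horizontal axis and with all 6 libraries on the vertical axis, coloured by whether the types overlapped without rST replicate 1. The 474 loci higher in rST on the right spread down to negative values with all 6 libraries (96 of 474), while the 705 lower loci stay mostly negative (19 are positive).

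Without rST replicate 1, the loci with the largest excess in rST were 5 RIKEN adult testis clones, Gm5893, Gm43001 and Wbscr25, which stood between 1.15 and 84.9 FPKM in pacSC replicates 1 and 2 and between 66.7 and 4539 FPKM in rST replicates 2 and 3. Of the 474 loci above all pacSC libraries, 343 had a mean of at least 5 FPKM in rST, and the 8 with the largest fold change are described. In all 8, pacSC replicate 3 lay between the other pacSC libraries and rST replicates 2 and 3, and rST replicate 1 was at or near 0. Since they were chosen by separation and fold change, their direction is not a result. Nor is the place of pacSC replicate 3 under rST replicates 2 and 3. None passed limma's test in either version (adjusted p 0.299 each without rST replicate 1).

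1700009J07Rik (chromosome 10, 77893417 to 77896114, mm10), a long intergenic RNA that overlaps no coding gene, whose start region is printed above, was at 4.62, 4.8 and 319 FPKM in pacSC replicates 1 to 3, compared with 0, 621 and 756 FPKM in rST. Its log2 fold change was 4.97 (SE 1.86) without rST replicate 1 and 1.83 (SE 2.62) with all libraries. With pacSC replicate 3 also left out it was 6.91 (SE 0.26; limma adjusted p 2.58e-04). The pacSC libraries thus spanned 4.62 to 319 FPKM, and the highest of them was nearer to rST replicate 2 than to the other pacSC libraries.

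Gm5893 (chromosome 7, 24818795 to 24840275), a processed transcript with no coding overlap, was at 3.94, 3.50 and 233 FPKM in the pacSC libraries, against 0.0974, 452 and 539 FPKM in rST. 1700029B22Rik (chromosome 7, 131146439 to 131150580) is annotated as antisense and overlaps Fgfr2, the gene of a fibroblast growth factor receptor, but shares no exon with it. It was at 1.99, 1.80 and 112 FPKM in pacSC replicates 1 to 3, compared with 0, 271 and 279.9 FPKM in rST. In both loci the 2 pacSC libraries of the low AY036118 set were under 5 FPKM, and pacSC replicate 3 stood at 233 and 112 FPKM.

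Wbscr25 (chromosome 5, 134987433 to 135001350) is antisense to Cldn3, which encodes a tight junction protein, and shares 40 bases of exon with it. It was at 8.33, 8.43 and 537 FPKM in the pacSC libraries, against 0.0657, 658 and 1067 FPKM in rST. 1700084D21Rik (chromosome 13, 113136083 to 113144012), a long intergenic RNA whose window above holds a TGACNTCA match, was at 1.66, 2.51 and 88.1 FPKM in pacSC replicates 1 to 3, compared with 0, 222 and 189.9 FPKM in rST. For Wbscr25 the value of pacSC replicate 3 (537 FPKM) lay close under that of rST replicate 2 (658 FPKM).

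1700027A15Rik (chromosome 1, 72984844 to 73025507), the locus beside Tnp1 with the values given above, had the highest level of the 8. Its fold change was 4.25 (SE 1.4) without rST replicate 1, 0.29 (SE 2.95) with all libraries and 5.55 (SE 0.31) with pacSC replicate 3 also left out. 4930571K23Rik (chromosome 7, 125368861 to 125371013), a single-exon intergenic RNA, was at 33.3, 34.7 and 799.8 FPKM in the pacSC libraries, against 0.0142, 1745 and 1879.9 FPKM in rST. Gm43001 (chromosome 5, 129363562 to 129364721), an intergenic RNA of 724 exonic bases, was at 1.17, 1.15 and 27.3 FPKM in pacSC replicates 1 to 3, compared with 0, 118 and 66.7 FPKM in rST. In all 3 loci, pacSC replicate 3 stood above the other pacSC libraries.

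The same 8 loci were read in the elST libraries, which are older than rST and were not used in the choice. In elST replicate 2 they stood at 21.7 to 874.9 FPKM, under pacSC replicate 3 at each locus, while in elST replicate 1 they were at 0.570 FPKM or under. In elST replicate 3 they ranged from 0.862 to 73.0 FPKM, close to pacSC replicates 1 and 2. The 3 elST libraries thus differed from each other at these loci. So did the plpSC libraries, which are labelled day 14 and so younger than pacSC. In plpSC replicate 3 the 8 loci stood at 21.8 to 874 FPKM, also under pacSC replicate 3 at each locus. In plpSC replicates 1 and 2 they were at 0.0460 FPKM or under.

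**Figure D3:**
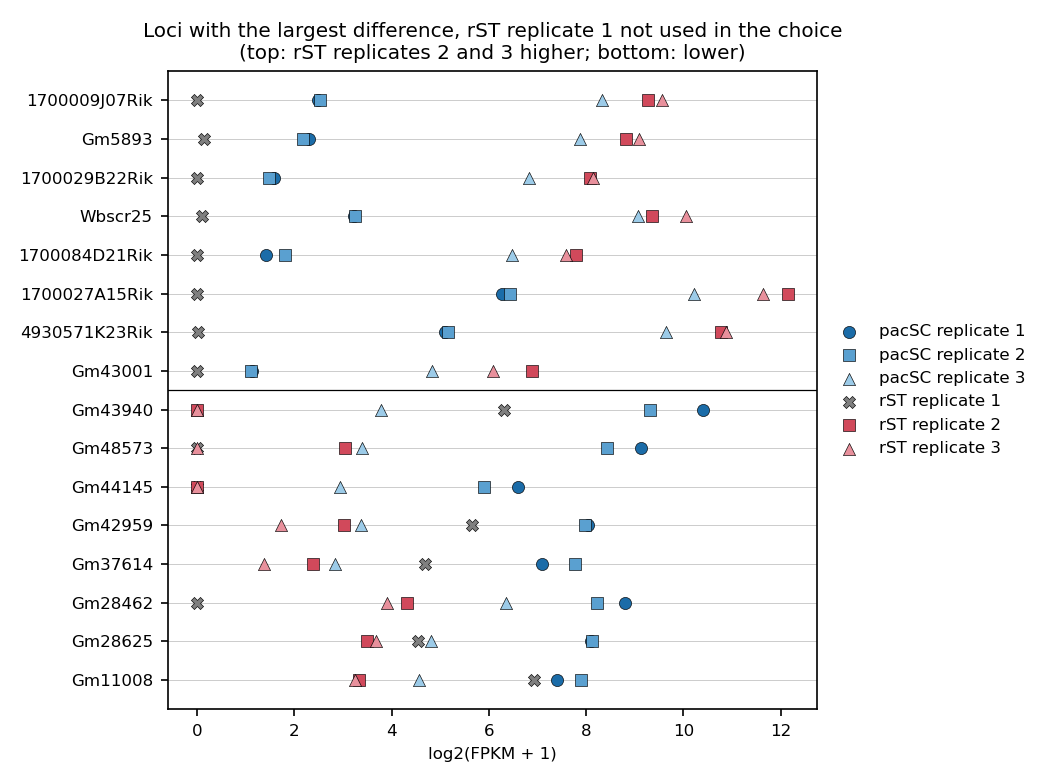
Level of 16 loci in each of the 6 libraries on log2(FPKM + 1), with the 8 loci of largest excess in rST replicates 2 and 3 above the line and the 8 of largest deficit below it. In the upper 8, rST replicate 1 is at or near 0 and pacSC replicate 3 lies near the rST libraries, while in the lower 8 pacSC replicates 1 and 2 stand highest.

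With rST replicate 1 set aside, 705 loci were lower in both other rST libraries than in every pacSC library, of which 329 had a mean of at least 5 FPKM in pacSC. The 8 with the largest deficit were mostly short: 6 had 165 to 212 exonic bases, near or under the inferred fragment length of 200 to 270 bp. Of all 2787 tested loci, 111 had under 300 exonic bases. Without rST replicate 1, 24 of these (21.6%) stood lower in rST and 19 (17.1%) higher, against 25.3% and 17% of all loci. FPKM of short loci rests on few possible fragment positions and on the length correction. The fragment length was longer in the 2 low-set libraries than in the other 4. In elST replicate 3, with an inferred fragment length of 270 bp, the 8 loci with the largest deficit stood at 68.4 to 1767 FPKM. In elST replicates 1 and 2 (210 bp each) they were at 0 to 105.9 and 4.25 to 24.0 FPKM. In the priSG-B libraries (day 9) they ranged from 0 to 949 FPKM. Whether fragment length had a part in these differences was not tested.

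Gm43940 (chromosome 6, 139830387 to 139830551), of the class TEC (to be experimentally tested, a locus with weak evidence of a transcript) within Pik3c2g, was at 1353, 633 and 12.7 FPKM in the pacSC libraries, against 77.8, 0 and 0 FPKM in rST. Its log2 fold change was -7.83 (SE 1.94) without rST replicate 1 and -5.73 (SE 2.20) with all libraries. Gm48573 (chromosome 12, 84677300 to 84677604), whose whole exon sequence lies opposite Syndig1l, was at 559, 343 and 9.43 FPKM in pacSC replicates 1 to 3, compared with 0, 7.18 and 0 FPKM in rST. In both, pacSC replicates 1 and 2 were more than 10 times above pacSC replicate 3, which was nearer to rST.

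Gm44145 (chromosome 6, 82680132 to 82694822) is annotated as antisense and overlaps Pole4 (a DNA polymerase epsilon subunit) without a shared exon. It was at 96.4, 59.0 and 6.69 FPKM in the pacSC libraries, and all 3 rST libraries listed it at 0. Its log2 fold change was -5.15 in both versions (SE 1.06 with all libraries, 1.12 without rST replicate 1). The library labelled rST replicate 1 listed 835 of all 2787 loci at 0, so its 0 here does not set it with the other rST libraries. Gm44145 was also at 0 in every priSG-A, priSG-B and plpSC library and in elST replicate 1. With 172 exonic bases it is shorter than the fragments.

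Gm42959 (chromosome 6, 3190691 to 3190902) was at 263, 251 and 9.38 FPKM in the pacSC libraries, against 49.2, 7.10 and 2.29 FPKM in rST. Gm37614 (chromosome 9, 88826604 to 88826813) was at 136, 217 and 6.18 FPKM in pacSC replicates 1 to 3, compared with 24.7, 4.22 and 1.61 FPKM in rST. Gm28625 (chromosome 9, 84890545 to 84890749) was at 275, 275 and 27.1 FPKM in the pacSC libraries, against 22.4, 10.3 and 11.9 FPKM in rST. These 3 lie outside coding genes, and in Gm42959 and Gm37614 the level in rST replicate 1 was above that of pacSC replicate 3, so that the types overlapped with all libraries.

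Gm11008 (chromosome 2, 176097450 to 176100706), an intergenic RNA of 753 exonic bases and so longer than the fragments, was at 168, 235 and 22.6 FPKM in pacSC replicates 1 to 3, compared with 120.3, 9.00 and 8.54 FPKM in rST. Its log2 fold change was -3.33 (SE 1.10) without rST replicate 1, -2.12 (SE 1.62) with it and -4.36 (SE 0.29) when pacSC replicate 3 was left out too. Gm28462, on chromosome Y (68999952 to 69001511), was at 444, 299 and 80.3 FPKM in the pacSC libraries, against 0, 18.9 and 14.0 FPKM in rST. The long arm of the mouse Y consists mostly of near-identical repeated copies, so reads of Y loci can be shared between them and their values are uncertain.

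With all 6 libraries, 8 loci stood higher in every rST library than in every pacSC library. Of these 8, 7 were among the loci called higher in the 4-library fit, against 34.4% of all loci. That fit used 4 of the same libraries, already separate at these loci by the choice, so the overlap is not a separate check. Of the 8, 4 had a mean of at least 5 FPKM in rST. Gm11175 (chromosome 8, 70699162 to 70700080) had the largest fold change, at 12.4, 13.0 and 57.8 FPKM in pacSC replicates 1 to 3, compared with 78.7, 90.4 and 93.9 FPKM in rST. All of its 877 exonic bases lie opposite the exon of Jund, the gene of an AP-1 transcription factor. With the use of strand not given, the reads of Gm11175 cannot be told from Jund reads. The log2 fold change was 1.99 (SE 1.35; limma adjusted p 0.845) with all libraries.

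AC139579.1 (chromosome 7, 102235854 to 102237530), whose 606 exonic bases all lie in exons of Pgap2 on the same strand, was at 4.60, 4.53 and 8.56 FPKM in the pacSC libraries, against 10.2, 37.9 and 13.3 FPKM in rST. 2610307P16Rik (chromosome 13, 28460034 to 28885620), a processed transcript across a long interval without coding genes, was at 1.90, 1.01 and 2.53 FPKM in pacSC replicates 1 to 3, compared with 9.30, 2.57 and 4.02 FPKM in rST. Gm44510 (chromosome 7, 56012948 to 56017479), within Nipa1 (a magnesium transporter gene), was at 27.5, 33.1 and 28.7 FPKM in the pacSC libraries, against 66.8, 53.8 and 39.5 FPKM in rST. Of these, 2610307P16Rik and Gm44510 had their highest value in rST replicate 1. The other 4 of the 8 were named after their values were seen. Gm13066 (opposite Ctnnbip1), Gm36569 (Fam198b), Gm38948 (Bicra) and Gm42596 (Fbrsl1) each share exon sequence with a coding gene on the other strand. Their values were 0.0647 to 3.14 FPKM in pacSC replicates 1 to 3, compared with 1.04 to 6.48 FPKM in rST. Thus 6 of the 8 share exon sequence with a coding gene, as do 861 of all 2787 loci (30.9%). The latter count takes in loci annotated as coding themselves, such as Gm47283.

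In the other direction, 375 loci stood lower in every rST library, of which 201 had a mean of at least 5 FPKM in pacSC. The 4-library fit called 261 of the 375 lower, against 34.2% of all loci. Here too the choice used the same 4 libraries, so the overlap is not a separate check. Gm48573, Gm44145 and Gm28462, described above, were 3 of the 8 with the largest deficit. Gm29406 (chromosome Y, 56941294 to 56942627) was at 443, 635 and 69.0 FPKM in the pacSC libraries, against 0, 53.4 and 38.8 FPKM in rST. Gm29003 (chromosome Y, 66756992 to 66761183) was at 39.1, 186 and 14.5 FPKM in pacSC replicates 1 to 3, compared with 0, 11.3 and 6.17 FPKM in rST. The log2 fold change of Gm29003 was -3.46 (SE 1.45) with all 6 libraries and 0.39 in a fit of all types with a term for the AY036118 set. In both Y loci pacSC replicate 3 was close to rST replicate 2, and rST replicate 1 was listed at 0.

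Gm31072 (chromosome 14, 114945999 to 114947584), an intergenic RNA, was among the most abundant of these, at 1380.0, 1685 and 184 FPKM in the pacSC libraries, against 2.95, 177 and 89.3 FPKM in rST. 1700010K23Rik (chromosome 16, 66657118 to 66664626), which shares 256 bases of exon with Cadm2 (a cell adhesion gene) on the other strand, was at 176, 231 and 56.4 FPKM in pacSC replicates 1 to 3, compared with 0, 51.8 and 28.0 FPKM in rST. Gm32872 (chromosome 10, 68530094 to 68533936), opposite Cabcoco1, was at 60.3, 47.3 and 27.1 FPKM in the pacSC libraries, against 0, 7.58 and 6.98 FPKM in rST. For Gm31072 and 1700010K23Rik the gap between pacSC replicate 3 and rST replicate 2 was smaller than the gap between rST replicates 2 and 3, so the types were barely separate.

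The 2 libraries that stood apart were placed on a scale fixed by the other 4, for the 1911 loci of the 4-library fit: 0% is the mean of pacSC replicates 1 and 2 and 100% the mean of rST replicates 2 and 3, on the log2 scale. Neither library entered that fit. At the 958 loci higher in rST, pacSC replicate 3 was nearer to rST at 903 (94.3%), with a median position of 95.1%. At the 953 lower loci it was nearer to rST at 747 (78.4%), with a median of 84.9%. The library labelled pacSC replicate 3 thus lay mostly at the rST end in both directions. At the lower loci that place was not particular to it. There priSG-A replicates 1, 2 and 3 were nearer to rST at 68.0%, 63.0% and 40.0% of loci. For priSG-B replicates 1, 2 and 3 the shares were 63.9%, 63.4% and 64.6%.

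The library labelled rST replicate 1 did not lie at either end as a whole. At the 958 higher loci it was nearer to rST at 24 (2.51%) and lay beyond the pacSC end at 874, with a median of -60.4%. At the 953 lower loci it was nearer to rST at 583 (61.2%), with a median of 77.6%. This library was thus low in both groups of loci, where low means like rST in one and unlike it in the other. The elST libraries spread as widely: at the higher loci, elST replicates 1, 2 and 3 were nearer to rST at 2.82%, 72.3% and 1.04% of loci. For plpSC replicates 1, 2 and 3, labelled day 14, these shares were 2.30%, 3.13% and 71.7%. At the lower loci the shares were 58.4%, 51.4% and 1.68% for elST and 67.1%, 63.2% and 57.8% for plpSC.

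**Figure D4:**
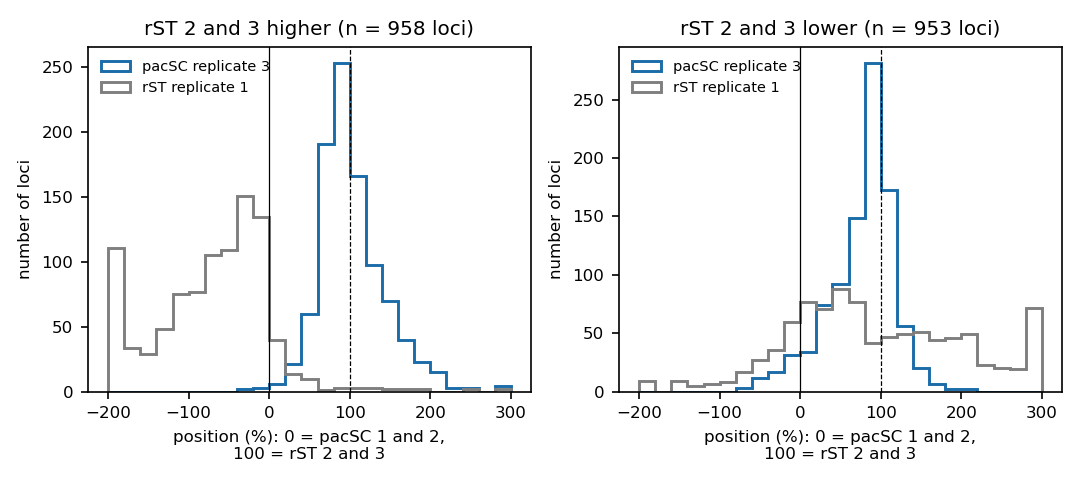
Number of loci by position of the 2 left-out libraries between pacSC replicates 1 and 2 (0%) and rST replicates 2 and 3 (100%), with loci higher in rST (958) and lower in rST (953) in separate panels and positions beyond the axis drawn in its end bins. The library labelled pacSC replicate 3 peaks near 100% in both panels (medians 95.1% and 84.9%), and the library labelled rST replicate 1 lies below 0% for the higher loci (median -60.4%).

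The gene groups are described by counts and medians beside those of all tested loci, with no test of the group. RIKEN clones named for adult testis libraries (symbols that begin with an adult testis library code and end in Rik) had 773 tested loci. Without rST replicate 1, 169 of them (21.9%) stood higher in rST and 119 (15.4%) lower, against 17% and 25.3% of all loci. With all libraries none stood higher and 107 (13.8%) stood lower, near the 13.5% of all loci. The median log2 fold change was 0.20 without rST replicate 1 and -0.59 with it, and 653 of the 773 (84.5%) were under 1 FPKM in rST replicate 1. Within the high AY036118 set, where pacSC replicate 3 is the only pacSC library, the median without rST replicate 1 was -0.15, against -0.18 over all loci.

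The 4 most abundant of these clones were 1700027A15Rik and 4930571K23Rik (above), 4930570D08Rik and 1700008K24Rik. 4930570D08Rik (chromosome X, 133898699 to 133901213; 196 exonic bases) was at 575, 602 and 1311 FPKM in pacSC replicates 1 to 3, compared with 0, 2047 and 2335 FPKM in rST. 1700008K24Rik (chromosome 17, 49112263 to 49113535) was at 677, 813 and 266 FPKM in the pacSC libraries, against 27.6, 455 and 329.8 FPKM in rST. The first did not overlap without rST replicate 1 and the second did, with pacSC replicate 3 the lowest of its type.

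Other RIKEN clones, from libraries of other tissues and ages, had the opposite split. Of 196 tested, 15 (7.65%) stood higher in rST and 64 (32.7%) lower without rST replicate 1, and 64 were under 1 FPKM in rST replicate 1. Their median was -0.59 without rST replicate 1 and -0.52 with it, and quantile normalization turned the latter to 0.19. Within the high AY036118 set it was -0.11 without rST replicate 1, against -0.18 over all loci. 2310010J17Rik (chromosome 7, 90124822 to 90129984) was at 104, 133 and 36.0 FPKM in pacSC replicates 1 to 3, compared with 9.40, 16.7 and 18 FPKM in rST. 2810408I11Rik (chromosome 1, 64679871 to 64690659) was at 46.2, 51.8 and 105 FPKM in the pacSC libraries, against 3.16, 51.9 and 76.2 FPKM in rST, so its types overlapped.

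**Figure D5:**
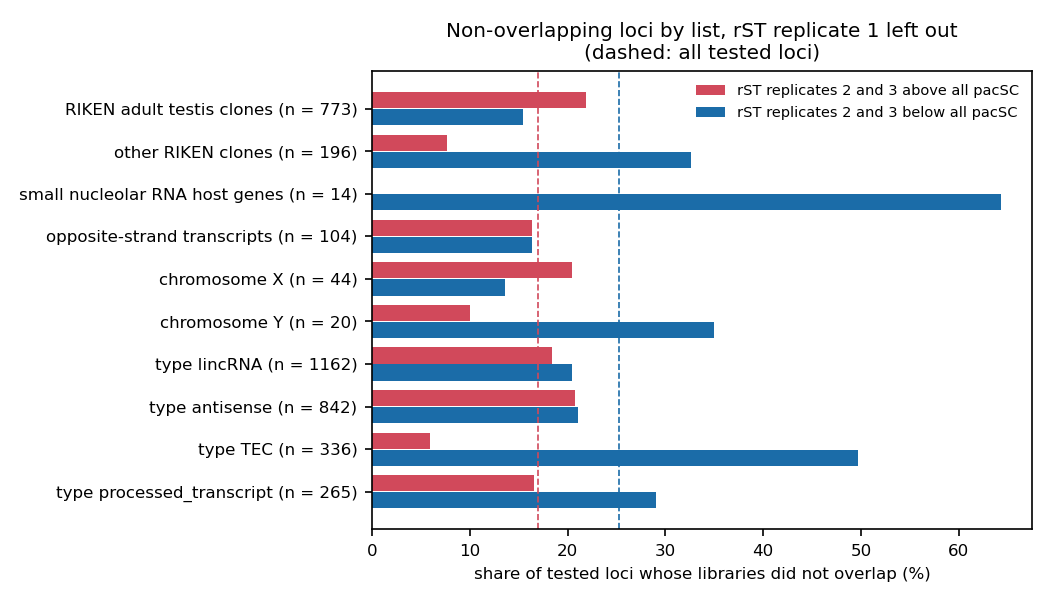
Share of the tested loci of each group (percent, horizontal bars from 0) whose rST replicates 2 and 3 lay above all pacSC libraries or below them, with dashed lines at the shares of all 2787 loci (17% and 25.3%). Among these groups, the small nucleolar RNA host genes (64.3% of 14 rows) and the TEC loci (49.7%) have the longest bars for lower in rST.

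Small nucleolar RNA host genes carry small nucleolar RNAs in their introns, many of which guide chemical modification of ribosomal RNA. The table gives them 24 rows for 16 genes, because Snhg14 stands on several rows, and 14 rows of 13 genes were tested. With rST replicate 1 set aside, 9 of the 14 rows (64.3%), from 8 genes, stood lower in rST and none higher, against 25.3% and 17% of all loci. With all libraries none was separate in either direction. The median was -1.31 without rST replicate 1 and -0.69 with it, and quantile normalization turned the latter to 0.09. Within the high AY036118 set the median was -0.42 without rST replicate 1, against -0.18 over all loci. In the 4-library fit limma called 12 of the 14 rows lower, each from a different gene, against 34.2% of all loci.

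Gas5 (chromosome 1, 161034422 to 161038539), a growth arrest transcript, was at 68.7, 69.5 and 36.6 FPKM in pacSC replicates 1 to 3, compared with 86.2, 32.4 and 29.9 FPKM in rST. Snhg1 (chromosome 19, 8723475 to 8726443) was at 13.5, 16.3 and 3.33 FPKM in the pacSC libraries, against 34.5, 2.83 and 1.99 FPKM in rST. Snhg5 (chromosome 9, 88495268 to 88523562) was at 16.1, 17.5 and 6.01 FPKM in pacSC replicates 1 to 3, compared with 22.7, 2.74 and 2.66 FPKM in rST. In these 3 the library labelled rST replicate 1 was the highest of the 6. Snhg8 (chromosome 3, 123507552 to 123508404) was highest in pacSC replicate 3, at 35.9, 41.5 and 48.8 FPKM in the pacSC libraries, against 42.5, 26.9 and 23.4 FPKM in rST. Of the 14 tested rows, 9 had their highest value in rST replicate 1, and the other 5 were Snhg3, Snhg8, Snhg10, Snhg16 and 1 row of Snhg14.

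MicroRNA host genes give primary transcripts from which microRNAs are cut. Of the 13 such loci, 5 were tested, with 2 lower in rST and none higher without rST replicate 1, against 25.3% and 17% of all loci. Mir17hg (chromosome 14, 115042879 to 115046727), host of the miR-17 cluster that is known for promoting proliferation, was at 3.93, 4.06 and 0.265 FPKM in pacSC replicates 1 to 3, compared with 3.13, 0.0307 and 0.0610 FPKM in rST. Mir99ahg (chromosome 16, 77236317 to 77773427) was at 7.01, 5.57 and 44.0 FPKM in the pacSC libraries, against 12.8, 23.1 and 43.1 FPKM in rST. Mir670hg (chromosome 2, 94160636 to 94264918) was at 2.43, 2.47 and 18.1 FPKM in pacSC replicates 1 to 3, compared with 1.23, 8.18 and 17.3 FPKM in rST. Mir17hg was thus low in pacSC replicate 3 and the other 2 were highest there, and Mir9-3hg ranged only from 2.28 to 6.96 FPKM over the 6 libraries.

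Imprinted noncoding RNAs are transcribed from 1 parental allele, and 7 rows of 6 listed RNAs were tested, with Snhg14 on 2 rows. Without rST replicate 1, 4 rows stood lower in rST and none higher, against 25.3% and 17% of all loci. The 4 were Gnasas1, Rian and both rows of Snhg14, from 3 RNAs. The 4-library fit called 2 rows higher (Meg3 and Mirg) and 2 lower (Gnasas1 and 1 row of Snhg14). Of all loci it called 34.4% higher and 34.2% lower. Gnasas1 (chromosome 2, 174281237 to 174295436), antisense RNA of the Gnas locus, was at 9.30, 9.42 and 0.719 FPKM in the pacSC libraries, against 6.32, 0.425 and 0.455 FPKM in rST. Snhg14 (its row at chromosome 7, 59619158 to 59874749), the long host transcript of the Prader-Willi region that counts also among the small nucleolar host genes, was at 4.76, 4.02 and 7.54 FPKM in pacSC replicates 1 to 3, compared with 4.14, 1.01 and 3.62 FPKM in rST. Rian and Mirg, from the Dlk1-Dio3 region, differed from each other. Rian (chromosome 12, 109603808 to 109661716) was at 3.14, 3.54 and 4.41 FPKM in the pacSC libraries, against 7.31, 2.96 and 2.95 FPKM in rST. It stood highest in rST replicate 1. Without that library it was barely separate, with a log2 fold change of -0.24 (SE 0.42). Mirg (chromosome 12, 109729764 to 109749460) stood lowest in rST replicate 1 (0.209 FPKM) and highest in pacSC replicate 3 (4.36 FPKM).

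Of the nuclear RNAs, Malat1 (chromosome 19, 5795690 to 5802672), which locates to nuclear speckles, was at 156, 111 and 441 FPKM in the pacSC libraries, against 1140.4, 129 and 287 FPKM in rST. Its fold change was 0.81 (SE 1.57) with all libraries and -0.04 (SE 0.90) without rST replicate 1, whose value was the highest. Neat1 (chromosome 19, 5824708 to 5845478), the RNA that builds paraspeckles, ranged from 4.48 to 6.71 FPKM in pacSC and from 3.01 to 6.16 FPKM in rST. The types overlapped for both.

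The X-inactivation centre is the region whose RNAs control silencing of an X chromosome in female cells, and in male germ cells the X is silenced by another route during meiosis. Xist and Tsix did not pass the level filter. Ftx (chromosome X, 103560907 to 103623790) was at 5.26, 5.43 and 1.66 FPKM in pacSC replicates 1 to 3, compared with 3.48, 0.744 and 0.948 FPKM in rST. Jpx (chromosome X, 103493556 to 103565696) was at 0.363, 0.315 and 1.01 FPKM in the pacSC libraries, against 0.666, 1.31 and 1.00 FPKM in rST. With rST replicate 1 set aside, Ftx stood lower in rST and Jpx overlapped, with pacSC replicate 3 just above rST replicate 3.

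Of 44 tested loci on chromosome X, 9 (20.5%) stood higher in rST and 6 (13.6%) lower without rST replicate 1, against 17% and 25.3% of all loci. The median fold change was -0.12, which equal sums turned to 0.23. BC061195 (chromosome X, 93183227 to 93183946) was at 83.1, 92.6 and 488 FPKM in pacSC replicates 1 to 3, compared with 0.356, 861 and 761 FPKM in rST. 1700003E24Rik (93156154 to 93156873 on X), which has the same exonic length of 577 bases, was at 66.2, 73.5 and 460.0 FPKM in the pacSC libraries, against 0.214, 734 and 728 FPKM in rST, and 1700010D01Rik (95732586 to 95733265 on X) was at 103, 118 and 458 FPKM in pacSC replicates 1 to 3, compared with 0.440, 792 and 691 FPKM in rST. The 3 followed the order of the leading autosomal loci, with rST replicate 1 lowest and pacSC replicate 3 between the other pacSC libraries and rST. Whether they share reads was not tested.

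Of 20 tested loci on chromosome Y, 2 (10%) stood higher and 7 (35.0%) lower without rST replicate 1, against 17% and 25.3% of all loci, and 18 were under 1 FPKM in rST replicate 1. The median of -0.30 turned to 0.26 with equal sums. Gm47283 (chromosome Y, 90784738 to 90816465), annotated as protein coding, was at 15.9, 12.1 and 38.8 FPKM in the pacSC libraries, against 277, 22.2 and 19.1 FPKM in rST. Its highest value was in the library labelled rST replicate 1, which sets it apart from Gm28462, Gm29406 and Gm29003, all listed at 0 there.

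Catalytic RNAs with a tested locus were 2. Rmrp (chromosome 4, 43492783 to 43493063), the RNA of RNase MRP that cuts precursor ribosomal RNA, was at 51841, 66814 and 493 FPKM in pacSC replicates 1 to 3, compared with 36309, 1417 and 253 FPKM in rST. Terc (chromosome 3, 96414437 to 96414833), the RNA template of telomerase, was at 34.8, 43.9 and 0.320 FPKM in the pacSC libraries, against 52.4, 1.32 and 0 FPKM in rST. Both lack a poly(A) tail, and in both the low libraries were pacSC replicate 3 and rST replicates 2 and 3, so that the types overlapped even without rST replicate 1. Rmrp has 281 bases, close to the fragment length.

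Tug1 and Pvt1 stood for noncoding RNAs known from testis or tumour work. Tug1 (chromosome 11, 3639785 to 3649673), whose loss is known to impair male fertility in mice, was at 28.2, 27.0 and 13.1 FPKM in pacSC replicates 1 to 3, compared with 34.5, 18.6 and 15.7 FPKM in rST. Pvt1 (chromosome 15, 62037986 to 62378096), a neighbour of the gene of the transcription factor MYC, was at 6.36, 7.22 and 5.72 FPKM in the pacSC libraries, against 0.264, 20.8 and 10.9 FPKM in rST. Pvt1 stood higher in rST without rST replicate 1 (fold change 1.12, SE 0.52) and its types overlapped with it (-0.10, SE 1.15).

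Transcripts named for lying opposite a coding gene had 104 tested rows. Without rST replicate 1, 17 (16.3%) stood higher in rST and 17 lower, near the 17% of all loci for the first and under the 25.3% for the second. Ube4bos3 (chromosome 4, 149334639 to 149335897) was at 10.6, 11.4 and 119 FPKM in pacSC replicates 1 to 3, compared with 0.671, 138 and 162 FPKM in rST. Med9os (chromosome 11, 59946889 to 59948142) was at 176, 178 and 232 FPKM in the pacSC libraries, against 9.31, 149 and 211 FPKM in rST. The types did not overlap for Ube4bos3 without rST replicate 1 and overlapped for Med9os, where only rST replicate 1 stood apart. Kcnmb4os1 (chromosome 10, 116418052 to 116421237) and Dgkeos (chromosome 11, 89064729 to 89069098) were at 85.3 to 165 and 40.5 to 83.9 FPKM in pacSC replicates 1 to 3, compared with 2.94 to 242 and 0.569 to 117 FPKM in rST, with rST replicate 1 lowest in both.

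By annotation type, TEC loci split more unevenly than long intergenic and antisense loci, a difference that was not tested. Of 336, 20 (5.95%) stood higher in rST and 167 (49.7%) lower without rST replicate 1, against 17% and 25.3% of all loci. Their median was -0.72 without rST replicate 1 and -0.46 within the high AY036118 set, against -0.18 over all loci there. With all libraries it was -0.63, which quantile normalization turned to 0.05. The 1162 long intergenic RNAs had 214 (18.4%) higher and 238 (20.5%) lower, and the 842 antisense loci 175 (20.8%) and 177 (21.0%). In rST replicate 1, 79.3% of the long intergenic RNAs and 32.7% of the TEC loci were under 1 FPKM.

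Of the 3 ribosomal RNA-derived loci, which lie next to each other on chromosome 17, AY036118 (39847113 to 39848035) is described above. Gm42418 (39846958 to 39848788), which spans it, was at 33.5, 28.4 and 338 FPKM in the pacSC libraries, against 1004, 1024 and 264 FPKM in rST. Gm26917 (39843013 to 39846341) was at 454, 503 and 134 FPKM in pacSC replicates 1 to 3, compared with 2903, 82.5 and 63.9 FPKM in rST. The 3 did not follow one order, and for Gm42418 the types overlapped through pacSC replicate 3.

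Start regions were searched for 2 short motifs on both strands: TGACNTCA, a form of the site bound by CREM (a transcription factor known for spermatid genes), and AACNGTT, a form of the site bound by MYB proteins (MYBL1 is known for pachytene genes). A start window was at hand for 825 tested loci. TGACNTCA was in 8.83% of all 32851 RefSeq windows and in 18.5% of the 825. It was in 39 of 154 windows (25.3%) of loci that stood higher in rST without rST replicate 1 and in 24 of 157 (15.3%) of those that stood lower. AACNGTT was in 4.45% of all windows, 6.18% of the 825, 5 of the 154 (3.25%) and 11 of the 157 (7.01%). A match describes letters in a window and is not evidence of a bound site.

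Of the 25 loci with the largest differences in either version, 5 had a window at their start. The match in 1700084D21Rik is printed above. 1700010K23Rik, which stood lower in rST, held 2 matches to AACNGTT. 1700009J07Rik, 4930571K23Rik and 1700029B22Rik held no match to either motif. A further RefSeq start of 1700027A15Rik, beside Tnp1, held TGACATCA, and 124 bases of that window lie in an exon of Tnp1 on the other strand.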

How the data were processed

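Trizol was used for total RNA and the TruSeq RNA kit for libraries, per the labels' protocols. The authors deposited 1 table of FPKM for 13218 loci in 18 libraries, of which 6 were used here (pacSC and rST, 3 each). The submitters' processing notes name HISAT2, StringTie and mm10. Not given in the sources used here are versions, annotation, use of strand, filters and the denominator of the scaling. The design text mentions duplicates, whereas the labels number 3 libraries per type.

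Identifiers without version were matched to GENCODE M21 (13191 loci, of which 13098 had the same start and end; 27 not matched); coordinates are 1-based. A further 21 rows repeat an identifier, 1 of them tested. Depth was inferred from low FPKM values of single-exon loci of 1000 to 5000 bp (94.2% to 98.3% whole fragments within a tolerance of 0.02 in the 6 libraries), so that 1 FPKM over a kilobase of effective length stands for as many fragments as the depth in M. These values give counting precision only.

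Loci with at least 1 FPKM in 3 of the 6 columns were tested with limma 3.58.1 (R 4.3.3; trend and robust estimation, two-sided) on log2(FPKM + 1), with Benjamini-Hochberg adjustment over all 2787 loci, a threshold of 0.05 and only the compared libraries in the fit. The script was tested on simulated data. Alternatives were a pseudocount of 0.1, other filters, quantile normalization, equal sums, limma without trend and robust estimation, fits with all types, the high AY036118 set alone, a replicate block and leaving out each library. The loci named were up to 8 per direction and version that did not overlap and had a mean of at least 5 FPKM in the higher type, by size of fold change, and the 4 most abundant of each list. The other 4 loci above pacSC in every rST library, Snhg3, Snhg10 and Snhg16 were named after their values were seen. Members and lists were chosen with earlier results of these data known, and the motifs after sequences had been looked at. Promoter windows came from RefSeq (GRCm38.p6). The Python tools were Python 3.11.15, numpy 2.4.6, pandas 2.3.3 and matplotlib 3.10.9.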

Additional observations from a re-analysis of the deposited data

How the results depend on the processing

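With all 6 libraries, limma called 0 loci under all alternatives except the replicate block, which called 1 (Gm44145, lower), and the count was 0 to 0 when each library was left out in turn. With rST replicate 1 set aside, limma called 4 loci with the replicate block (Gm45600 higher, Gm44145, Gm43940 and Gm48573 lower) and 3 with the high AY036118 libraries only (Gm48911 higher, Gm44145 and Gm43940 lower), and 0 under the other settings that kept all 5 libraries. Leaving out each further library gave 0 to 1911 calls, with 1911 without pacSC replicate 3. Gm45600 and Gm48911 are named because of these counts, after their values were seen. Same-numbered libraries did not all deviate together (r of deviations 0.60, -0.35 and 0.66 for numbers 1 to 3), so the numbers were not taken as pairs. Where a fit left 1 library of a type, its spread was assumed to be that of the other type.

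The log2 fold change of Gm29003 with all 6 libraries turned to 0.39 in the fit of all types with a term for the library set, and the cause was not tested. Among the other values of named loci with all libraries, 189 kept direction and side of the threshold and 1 passed it. Without rST replicate 1, 219 did so and 21 passed it, 16 of them without pacSC replicate 3. List medians moved by more than the spread in 30 cases with all libraries and 321 did not, and in 68 cases without rST replicate 1 and 261 did not. Depth of 31.7 to 72.4 M fragments limits loci shorter than about the fragment length most, since few fragments fit them.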
